A study of Mus musculus with 25 samples.

Results

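Chemokines are small secreted proteins that direct the movement of leukocytes, and they act through receptors on the surface of the responding cells. The data described here are the transcript counts of 8 such genes in the isolated lymphoid follicles (ILFs) of the mouse jejunum and in the epithelium around them. The genes were chosen by symbol, as pairs of ligand and receptor and as receptors known for lymphocyte homing, with earlier results of these data known, and no threshold on a measured value was applied. They comprise the ligands Ccl20, Ccl25 and Ccl5 and the receptors Ccr6, Ccr9, Ccr7, Cxcr5 and Cxcr4, which are 8 of the 24089 genes in the count table.

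In the gut, CCL20 made by the follicle-associated epithelium (FAE) attracts CCR6+ B cells, dendritic cells and lymphoid tissue inducer (LTi) cells, while CCL25 made by small intestinal enterocytes attracts CCR9+ T cells and plasmablasts. CCL5 is secreted mainly by activated and cytotoxic lymphocytes. CXCR5 guides B cells into follicles along CXCL13, CCR7 guides naive T cells and migrating dendritic cells along CCL19 and CCL21, and CXCR4 responds to CXCL12 from stromal cells.

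Messenger RNA was measured by laser capture microdissection (LCM) followed by mcSCRBseq, a 3′ sequencing protocol that counts unique molecular identifiers (UMIs), so that a value is a number of captured molecules and not of reads. The regions were recognised by histology and cut from untreated male C57BL/6 mice aged 3 months. The 3 epithelial segments were the bottom of a neighbouring villus (VB), the bottom of the FAE (FAEB) and the top of the FAE (FAET), and the 2 immune segments were the bottom (ILFB) and the top (ILFT) of the follicle. Each segment has 5 libraries, with mouse 1 as the source of repeats 1 and 2 and mouse 2 as that of repeats 3, 4 and 5, and each library pools several follicles. With 25 libraries from 2 mice, every p-value below measures the spread between libraries that share an animal and not that between animals. It may be smaller than a test over animals, which was not run, would give. A dissected piece is a mixture of cells, so fewer cells of a type and less transcript per cell cannot be told apart.

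Libraries held between 21529 and 213736 UMIs in all. Fractions are given as UMIs per 10,000 UMIs of protein-coding, nuclear genes, a denominator of 6325 to 132961 UMIs per library, so that 3 UMIs, taken as the limit for a count of 0, correspond to between 0.226 and 4.74 per 10,000. Summed UMIs of 19 pan-epithelial genes (such as Epcam, Krt8 and Vil1) and 17 pan-immune genes (such as Ptprc, Coro1a and Cd52) were compared with the labels, and all genes of both lists were detected. In 6 libraries the markers went against the label. Immune UMIs exceeded epithelial UMIs in VB repeat 5 and FAET repeat 1, and the reverse was found in ILFB repeat 5 and ILFT repeats 1, 3 and 4. In the 13 remaining epithelial libraries the pan-immune share ran from 0 to 5.54 per 10,000 of all UMIs, the scale used for marker lists throughout, and in the 6 remaining ILF libraries from 25.7 to 65.6. Fold bounds set against a count of 0 include the 6 libraries against their label. The tests of epithelium against ILF are given with and without them. In the latter case the libraries were chosen on immune and epithelial genes that the members themselves move with, so the choice and the result are not independent.

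The promoters of Ccl20 and Ccl25 are shown because these are the ligands known from the epithelium, and they differed in where they were found. RefSeq start sites in GRCm38.p6 matched 5 of the 8 genes, and each window runs from 250 bases before the start to 50 after it. Capitals in Ccl20 mark GGAAANNCC, the core of an NF-kappaB type motif, and capitals in Ccl25 mark TATAAA. Both were searched on both strands, did not overlap each other, and occur in 5.82% and 13.6% of the 32851 promoter windows of the same length. The letters of the first were shortened after an earlier search of the same windows, and a match of letters is a description and not a binding site.
Ccl20, chr1:83116516-83116815, plus strand: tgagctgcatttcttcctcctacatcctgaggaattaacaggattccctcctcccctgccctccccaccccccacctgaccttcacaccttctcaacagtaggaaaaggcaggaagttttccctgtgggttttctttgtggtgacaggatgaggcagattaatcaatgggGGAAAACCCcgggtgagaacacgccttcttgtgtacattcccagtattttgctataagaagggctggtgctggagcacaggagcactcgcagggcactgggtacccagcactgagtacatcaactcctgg
Ccl25, chr8:4349338-4349637, plus strand: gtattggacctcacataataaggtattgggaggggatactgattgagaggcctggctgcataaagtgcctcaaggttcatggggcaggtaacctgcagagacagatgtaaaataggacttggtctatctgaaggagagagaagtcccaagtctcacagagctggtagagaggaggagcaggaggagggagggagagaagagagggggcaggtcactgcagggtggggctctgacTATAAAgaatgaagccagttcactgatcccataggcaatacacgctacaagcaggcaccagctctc
The marked stretch of Ccl20 begins 80 bases before the annotated start. The Ccl25 window is that of the downstream of 2 annotated start sites, and in it TATAAA begins 16 bases before the start. Neither motif was found at the upstream Ccl25 site or in both Ccr6 windows and the Ccr9 window, while TATAAA was found before the start of Cxcr4 on both strands, in overlapping positions.

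Among the 8 genes, Ccr6 is the one named in the list of imaging probes used here, and 3 of the 48 are shown to place them on the transcript. All 48 matched a GENCODE transcript of Ccr6 (chromosome 17) as reverse complements, 44 of them the 1398-base transcript Ccr6-202, between bases 8 and 1375. The first, one from the middle and the last along that transcript are written in lower case since the whole probe pairs.
Ccr6 probe, bases 8 to 27: tcacaggtgtggagaccctg
Ccr6 probe, bases 558 to 577: accgcatatgtgcctttcat
Ccr6 probe, bases 1356 to 1375: tagcaagtttcaccaaggct

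Ccl20, the ligand of CCR6, was found in FAE and ILF libraries and in no VB library. Its 150 UMIs lay in 10 libraries. In VB repeats 1 to 5 it had 0 UMIs each, in FAEB 1, 5, 6, 19 and 0, in FAET 0, 0, 0, 53 and 0, in ILFB 0, 3, 20, 0 and 2, and in ILFT 36, 0, 0, 5 and 0. FAEB was the segment with the most regular detection, in 4 of 5 repeats, whereas in FAET all UMIs came from repeat 4, a library with 16.6 per 10,000. The mean level was 3.32 ± 7.43 per 10,000 in FAET (SD, n = 5), 1.81 ± 2.59 in FAEB, 1.67 ± 2.83 in ILFT and 0.633 ± 0.751 in ILFB, and no neighbours in this order differed by more than the larger SD. VB had 0 of 201332 UMIs, which allows up to 0.149 per 10,000, so that the summed FAEB libraries were at least 11.1-fold higher and the summed ILFB libraries at least 4.37-fold higher. Without FAEB repeat 4 (61.3% of the FAEB UMIs) and ILFB repeat 3 (80.0% of the ILFB UMIs) these bounds fell to 5.11 and 1.22. The sums for FAET and ILFT, at least 31.0-fold and at least 13.3-fold higher, rest on 1 library for all and for 87.8% of their UMIs. That ILFT library is repeat 1, whose markers were epithelial, as were those of repeat 4, the only other ILFT library with Ccl20. The 2 ILFT libraries that matched their label held 0 UMIs. Of the 66 Ccl20 UMIs in ILF libraries, 23 were in libraries that matched their label, all of them ILFB libraries. Of the 201332 VB UMIs behind the bounds against VB, 75077 came from VB repeat 5, whose markers were immune. The bounds were not computed without this library.

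The 3 epithelial segments did not pass the threshold for Ccl20 in an exact permutation test of the Kruskal-Wallis statistic within mice (p = 0.0643, adjusted p = 0.957 over 8612 genes), a test in which 4.66% of all genes had p under 0.05. Without repeat 5, in which no epithelial library held Ccl20, the exact permutation p was 0.04. In edgeR's quasi-likelihood test with Benjamini-Hochberg adjustment over 9956 genes, Ccl20 had an adjusted p = 0.452 for FAEB against VB and 0.329 for FAET against VB. FAET and FAEB differed by 0.80 ± 1.28 (log2 fold change ± SE, edgeR adjusted p = 0.863), and without repeat 4 no Ccl20 was left in FAET.

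Ccl25, the ligand of CCR9, was the most abundant of the 8 with 682 UMIs in 21 libraries. VB repeats 1 to 5 held 72, 11, 27, 36 and 1 UMIs, FAEB 25, 31, 70, 21 and 45, and FAET 0, 0, 4, 33 and 30. All FAEB libraries and 4 of 5 VB libraries were above 7 per 10,000, while FAET ranged from 0 to 14.9. The low VB library was repeat 5 at 0.133 per 10,000, whose markers were immune. Mean levels were 9.87 ± 3.14 per 10,000 in FAEB (SD, n = 5), 8.87 ± 5.82 in VB and 5.72 ± 6.63 in FAET, a spread within which the 3 segments overlapped.

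The lower FAET mean of Ccl25 came from mouse 1. There both FAET libraries had 0 UMIs, against 7.57 and 8.25 per 10,000 in FAEB. In mouse 2 the means were 9.54 ± 5.77 in FAET and 11.2 ± 3.64 in FAEB (SD, n = 3). Of the mouse 1 libraries, FAET repeat 1 had immune markers and FAET repeat 2 had 6325 UMIs in the denominator, where a count of 0 allows up to 4.74 per 10,000. The log2 fold change of FAET was -0.98 ± 1.07 over FAEB (edgeR adjusted p = 0.737) and -0.80 ± 1.11 over VB (0.855), that of FAEB over VB was 0.18 ± 1.04 (adjusted p = 1), and the exact permutation p over the 3 segments was 0.585. The value of FAEB over VB changed sign without repeat 2 or repeat 5, within mouse 1 and without the 6 libraries, and that of FAET over VB within mouse 2.

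Ccl25 was also found in follicle libraries. ILFB held 2, 47, 35, 0 and 8 UMIs and ILFT 86, 0, 84, 11 and 3. The 4 ILF libraries with epithelial markers ranged from 3.28 to 15.6 per 10,000 (median 8.34), and the 6 others from 0 to 8.25 (median 0.539). The 13 epithelial libraries that matched their label had a median of 9.09 per 10,000. Per 100 pan-epithelial UMIs, Ccl25 was between 4.09 and 9.57 in VB and FAEB apart from VB repeat 5 (2.17), and 0, 0, 4.44, 4.93 and 8.96 in FAET. In the 4 ILF libraries with epithelial markers it was 7.44, 9.56 and 2.62 in ILFT repeats 1, 3 and 4 and 1.69 in ILFB repeat 5. In ILFB repeat 2 it reached 27.6 with 170 pan-epithelial UMIs, the highest ratio of all libraries.

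Ccl5, a chemokine of activated and cytotoxic lymphocytes, had 218 UMIs, and 103 of them were in ILFT repeat 3. VB repeats 1 to 5 held 1, 0, 0, 10 and 0 UMIs, FAEB 0, 2, 3, 0 and 1, FAET 9, 0, 0, 0 and 9, ILFB 6, 18, 15, 23 and 0, and ILFT 18, 0, 103, 0 and 0. ILFB was the most regular segment, from 0.999 to 3.16 per 10,000 in its first 4 repeats, and the ranges of all segments overlapped at 0. The means were 3.74 ± 6.70 per 10,000 in ILFT and 1.45 ± 1.15 in ILFB (SD, n = 5) against 0.272 ± 0.272 in FAEB. Both ILFT libraries with Ccl5 had epithelial markers, at 52.9 and 45.4 Ccl5 UMIs per 100 pan-immune UMIs, against 1.16 to 3.88 in the ILFB libraries that held it.

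**Figure D1:**
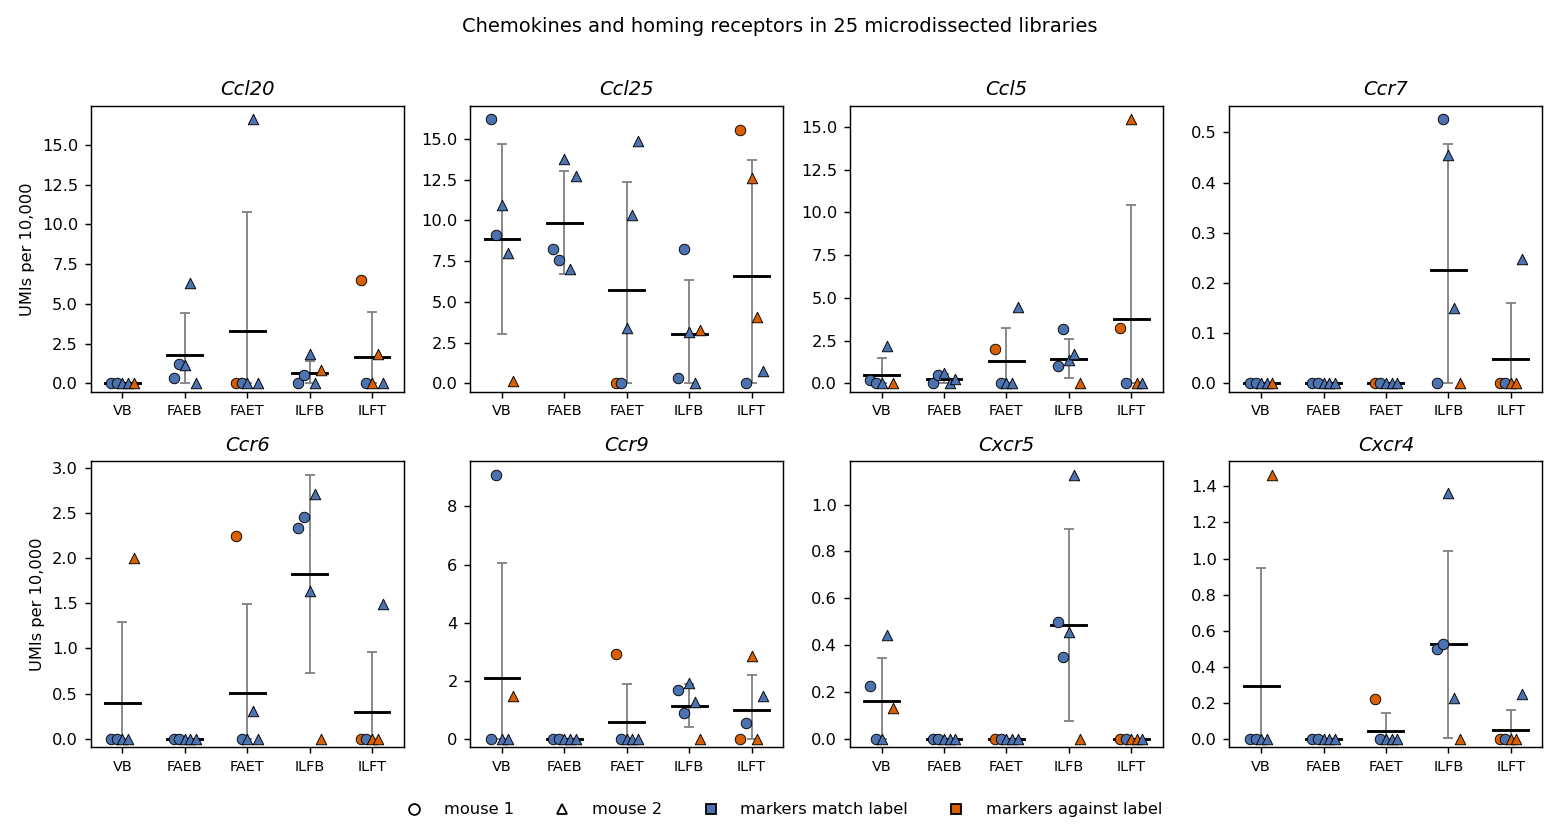
UMIs per 10,000 of each of the 8 genes (vertical axes, 1 scale per gene) in the 5 segments, with 1 point per library, a bar at the mean and whiskers of 1 SD cut at 0. Orange points are the 6 libraries whose markers went against the label. Ccl20 is at 0 in all VB libraries, the Ccl25 points of FAEB lie between 7.01 and 13.7, and Ccr6 is above 0 in 4 of 5 ILFB libraries and in no FAEB library.

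Ccr6, the receptor of CCL20, had most of its UMIs in ILFB, while the difference from ILFT passed no test. Of its 114 UMIs, 82 were in ILFB, where repeats 1 to 5 held 14, 14, 18, 36 and 0. ILFT held 0, 0, 0, 0 and 6, VB 0, 0, 0, 0 and 15, FAET 10, 0, 0, 1 and 0, and FAEB none. Of the 4 ILFT libraries at 0, repeats 1, 3 and 4 had epithelial markers, and in repeat 2 a count of 0 allows up to 1.64 per 10,000. The other ILFT library, repeat 5, was at 1.49 per 10,000. The ILFB library without Ccr6 was repeat 5, whose markers were epithelial, and the VB and FAET libraries with 15 and 10 UMIs were those with immune markers. The mean was 1.83 ± 1.10 per 10,000 in ILFB (SD, n = 5) and 0.510 ± 0.976 in FAET, the next segment, a step larger than the larger SD, although the ranges overlapped. FAET, VB and ILFT (0.298 ± 0.667) did not differ by more than their spread. FAEB had 0 of 187425 UMIs, which allows up to 0.160 per 10,000, and the summed ILFB libraries were at least 13.3-fold higher.

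In the 8 libraries that held Ccr6, it lay between 1.75 and 3.88 UMIs per 100 pan-immune UMIs. This range leaves out the libraries at 0, among them ILFT repeat 3 with 227 pan-immune UMIs and ILFT repeat 2 with 77. The 4 ILFB libraries ran from 1.85 to 3.02, ILFT repeat 5 stood at 1.75, VB repeat 5 at 1.83 and FAET repeat 1 at 3.88. ILFB exceeded ILFT by 1.53 per 10,000, with an exact permutation p = 0.0667 within mice, where 0.0167 is the smallest p that the 120 arrangements allow and 2.69% of all genes had p under 0.05. In edgeR the same difference was 3.24 ± 1.48 on the log2 scale (adjusted p = 0.268), beside a median of 0.77 over all genes. Without repeat 5, no Ccr6 was left in ILFT. In both mice ILFB was the higher segment, at 2.39 against 0 per 10,000 in mouse 1 and 1.45 against 0.497 in mouse 2. Behind these values, ILFT repeat 1 of mouse 1 and ILFT repeats 3 and 4 of mouse 2 had epithelial markers. Without the libraries against their label the difference was 1.54 per 10,000 and the exact permutation p was 0.111. The 9 arrangements left there cannot give a p under 0.05.

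Ccr9, the receptor of CCL25, had 114 UMIs in 10 libraries. ILFB repeats 1 to 5 held 10, 5, 21, 17 and 0 UMIs, ILFT 0, 1, 19, 0 and 6, VB 0, 11, 0, 0 and 11, FAET 13, 0, 0, 0 and 0, and FAEB none. Detection was most regular in ILFB, and 2 of the 3 epithelial libraries with Ccr9 were those with immune markers. The exception was VB repeat 2, with 9.09 per 10,000 in a denominator of 12097 UMIs and 18 pan-immune UMIs. Through this library VB had the highest mean (2.11 ± 3.95 per 10,000; SD, n = 5), followed by ILFB (1.15 ± 0.751), ILFT (0.978 ± 1.21) and FAET (0.582 ± 1.30), and no neighbours differed beyond their spread. The summed ILFB libraries were at least 8.62-fold above FAEB. Between ILFB and ILFT the log2 fold change was 0.51 ± 1.36 (edgeR adjusted p = 0.926).

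Cxcr5, the follicular homing receptor of B cells, had 29 UMIs. ILFB repeats 1 to 5 held 3, 2, 5, 15 and 0, VB 1, 0, 0, 2 and 1, and the other 3 segments none. ILFB was higher than ILFT in 4 of 5 repeats, but in 3 of these, repeats 1, 3 and 4, the ILFT library had epithelial markers, as did the ILFB library of repeat 5, where both were at 0. The summed ILFB libraries, at 0.651 per 10,000, were at least 4.50-fold above ILFT, at least 4.06-fold above FAEB and at least 2.49-fold above FAET. Without ILFB repeat 4, which held 15 of the UMIs, these bounds were 2.75, 2.49 and 1.52. Of the 207329 ILFT UMIs behind the bound against ILFT, 55198, 66647 and 27017 came from repeats 1, 3 and 4. The bound was not computed without these libraries. The exact permutation p for ILFB against ILFT was 0.0667, for a difference of 0.487 per 10,000, and the adjusted p of edgeR was 0.195. Without the libraries against their label the difference was 0.608 per 10,000 and the exact permutation p was 0.222. The 9 arrangements of that test are too few for a p under 0.05.

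Cxcr4, which retains and guides lymphocytes along CXCL12, had 37 UMIs, 24 of them in ILFB with 3, 3, 15, 3 and 0 in repeats 1 to 5. Outside ILFB it was found in VB repeat 5 with 11 UMIs, and with 1 UMI each in FAET repeat 1 and ILFT repeat 5. Its level was 0.523 ± 0.518 per 10,000 in ILFB and 0.0497 ± 0.111 in ILFT (SD, n = 5), where ILFT repeats 1, 3 and 4 had epithelial markers. The exact permutation p was 0.117 for a difference of 0.474 per 10,000, with a log2 fold change of 3.47 ± 1.61 (edgeR adjusted p = 0.276). Without the libraries against their label the difference was 0.530 per 10,000 and the exact permutation p was 0.444. The 9 arrangements left there cannot give a p under 0.05.

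Ccr7, the receptor of naive T cells and migrating dendritic cells, was the rarest with 11 UMIs. ILFB held 0, 3, 5, 2 and 0 UMIs and ILFT repeat 5 held 1, while all 15 epithelial libraries had 0. It did not reach 3 UMIs in 3 libraries and was left out of the fits. Its mean was 0.138 ± 0.205 per 10,000 over the 10 ILF libraries against 0 in the epithelium, with a 2-sided exact permutation p = 0.0176 within mice. The p rose to 0.0533 without repeat 3, 4 or 5. In the same test 11.4% of the 8612 genes past the filter had p under 0.05. The summed ILFB libraries were at least 1.75-fold above VB and at least 1.63-fold above FAEB, while the bound against FAET was 0.996. Without ILFB repeat 3 these bounds were 1.22, 1.14 and 0.697, so equal levels in FAET are within the limit for a count of 0.

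Detection of the receptors coincided. Ccr6, Ccr9 and Cxcr4 were present together in 7 libraries, which are all 7 with Cxcr4, 7 of 8 with Ccr6 and 7 of 10 with Ccr9. These were ILFB repeats 1 to 4, ILFT repeat 5, VB repeat 5 and FAET repeat 1, each with more immune than epithelial marker UMIs. Summed over the 5 receptors, the 6 ILF libraries that matched their label held 209 UMIs and all had at least 1, at 0.548 to 5.82 per 10,000. The 13 matching epithelial libraries held 15 UMIs in 4 libraries, and 11 of these were Ccr9 in VB repeat 2. Both epithelial libraries with immune markers were at 5.06 and 5.37 per 10,000, and 3 of the 4 ILF libraries with epithelial markers had 0. The B cell list ranged from 3.74 to 42.3 per 10,000 in ILFB, against 0.956 to 5.08 in ILFT and 0.130 to 6.27 in FAEB, and reached 36.8 in VB repeat 5. The LTi list ran from 0 to 12.6 in ILFB, 0.695 to 9.67 in ILFT and 0.117 to 2.02 in FAEB. The highest values of 3 other lists were in ILFT. The T cell list ran from 0.178 to 4.77 in ILFB and 0.869 to 12.3 in ILFT. For dendritic cells the ranges were 0 to 5.08 and 0.145 to 6.68. For plasma cells they were 2.14 to 58.8 and 1.56 to 395. The part of any of these cell types in the receptor values was not tested. Because the libraries share depth and cell content, the coincidence is a description of the libraries and not of cells.

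**Figure D2:**
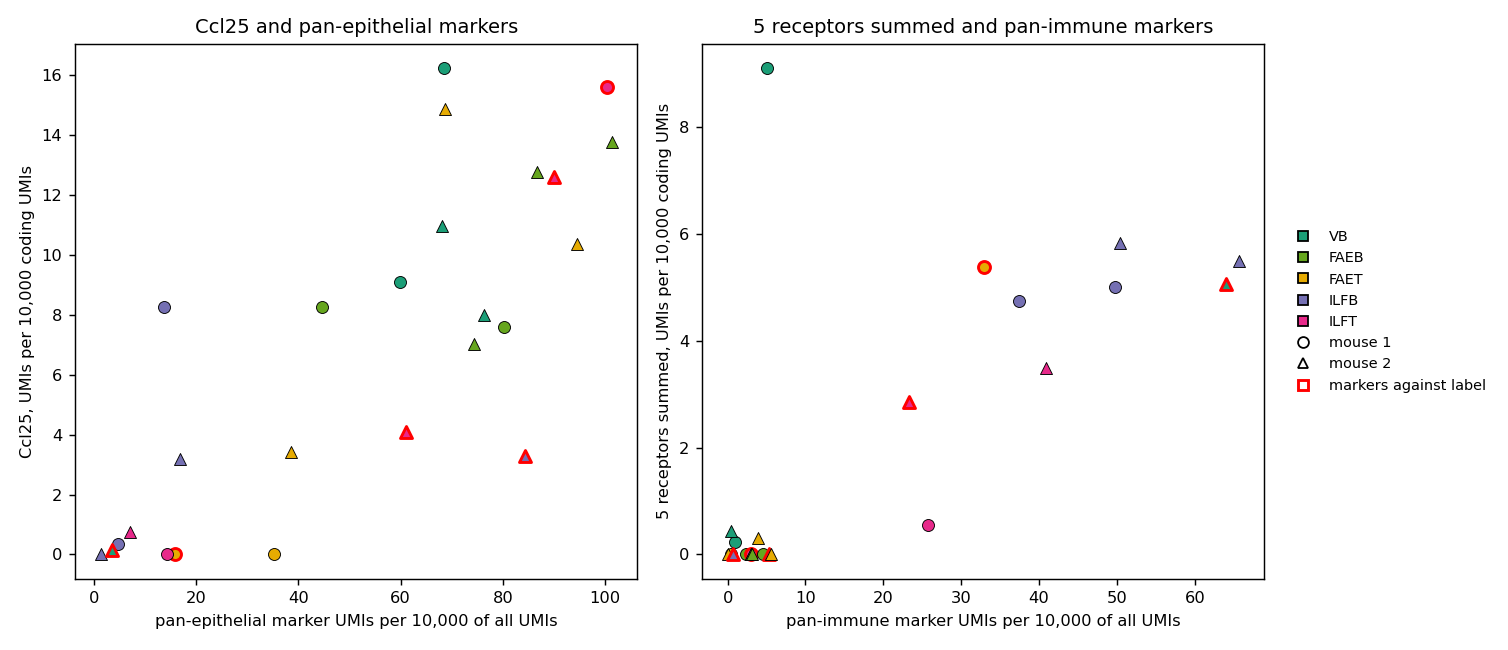
Left, Ccl25 against the pan-epithelial marker genes, and right, the sum of Ccr6, Ccr9, Cxcr4, Cxcr5 and Ccr7 against the pan-immune marker genes, with genes per 10,000 coding UMIs and markers per 10,000 of all UMIs, 1 point per library, coloured by segment and outlined in red where the markers went against the label. The receptor sum is above 3 in the ILFB libraries with immune markers, in 1 ILFT library, in VB repeat 5 and FAET repeat 1, and at 9.09 in VB repeat 2, which has few immune UMIs.

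The number of libraries with both a ligand and its receptor depends on how often each gene was found. No expected number was computed, so the counts below describe detection and not pairing. Ccl20 and Ccr6 were both present in 3 libraries (ILFB repeats 2 and 3 and FAET repeat 4), which is 3 of the 10 with Ccl20 and 3 of the 8 with Ccr6. Ccl25 and Ccr9 were both present in 7, of 21 and 10. Cxcl13 was found in 5 of the 7 libraries with Cxcr5, Cxcl12 in 3 of the 7 with Cxcr4, and Ccl19 in 3 of the 4 with Ccr7.

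The comparison of epithelium with follicle asked which of these genes separate the compartments. In the fit of 5 segments, 291 of 9956 genes passed an adjusted p of 0.05 (2.92%), 41 higher in the epithelium and 250 higher in the ILF, and 0 of the 7 tested members did. With the repeat as a block, 75 genes passed and again no member. At an unadjusted p under 0.05 there were 3 members and 1883 genes. For 5 of the 7 a whole segment had 0 UMIs, where a mean of segment levels has no defined fold change, so a second model with 1 level per compartment and a term for mouse was added after the data had been seen. It called 184 genes (1.85%) and 0 of 7 members. In it Ccl25 was higher in epithelium by 0.62 ± 0.69 (log2 fold change ± SE, edgeR adjusted p = 0.738) and Ccl20 differed by -0.01 (0.996). For Ccl20 no SE is given, since the way it was derived is not reliable so near to 0. The lymphocyte-associated genes had negative values, at -2.06 ± 0.78 for Ccl5 (edgeR adjusted p = 0.158), -1.92 ± 0.94 for Cxcr5 (0.326), -1.88 ± 0.87 for Ccr6 (0.299), -1.46 ± 0.93 for Ccr9 (0.487) and -1.42 ± 0.94 for Cxcr4 (0.504). The median over the 7 was -1.46 beside -0.43 over all genes tested.

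On the fractions, the 2-sided exact permutation tests within mice over 1051050 arrangements gave p = 0.0663 for Ccr6 (0.303 per 10,000 in epithelium, 1.06 in ILF), 0.0777 for Cxcr5, 0.101 for Ccl5 and 0.151 for Ccl25 (8.15 per 10,000 in epithelium). The exact p was 0.37 for Cxcr4, 0.85 for Ccl20 and 0.908 for Ccr9. No gene passed after adjustment over 8612 genes, and 11.4% of them had p under 0.05.

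Without the 6 libraries whose markers went against the label, 3 receptors and, in 1 of 2 models, Ccl25 were called by edgeR. The fit of 5 segments then called 1512 of 8738 genes (17.3%) and 4 of 7 members, which were Ccl25, Ccr6, Ccr9 and Cxcr4. The model with 1 level per compartment called 1501 genes (17.2%) and 3 of 7 members. Ccr6 fell by 5.47 ± 1.13 on the log2 scale (edgeR adjusted p = 0.000124), with 1 UMI in 13 epithelial libraries and 88 in 6 ILF libraries. Ccr9 fell by 3.25 ± 1.12 (edgeR adjusted p = 0.0281), with 11 UMIs in 1 epithelial library and 60 in 6 of 6 ILF libraries. Cxcr4 had 0 UMIs in the epithelium and 25 in 5 of 6 ILF libraries (edgeR adjusted p = 0.000801). Ccl25 was called in the first model only (edgeR adjusted p = 0.0195), and had 1.78 ± 0.86 on the log2 scale in the second (edgeR adjusted p = 0.136). Its mean was 9.40 ± 4.53 per 10,000 in the 13 epithelial libraries and 2.09 ± 3.25 in the 6 ILF libraries. In the second model Ccl20 (1.31 ± 1.03, edgeR adjusted p = 0.398), Ccl5 (-1.79, 0.213) and Cxcr5 (-2.64 ± 1.03, 0.0564) did not pass. A called share of 3 or 4 in 7 stands beside 17.2% and 17.3% of all genes.

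The exact permutation p-values of the fractions in these 19 libraries were 0.000649 for Ccr6 and for Cxcr4, 0.00227 for Ccr7, 0.0039 for Ccl25 and 0.00887 for Cxcr5, unadjusted, over 9240 arrangements. They were 0.402 for Ccl5, 0.633 for Ccl20 and 0.742 for Ccr9. They stand beside 24.2% of 8612 genes with p under 0.05 in these libraries. For Ccr9 the 9.09 per 10,000 of VB repeat 2, above every ILF library, left the mean difference at -0.60 per 10,000.

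**Figure D3:**
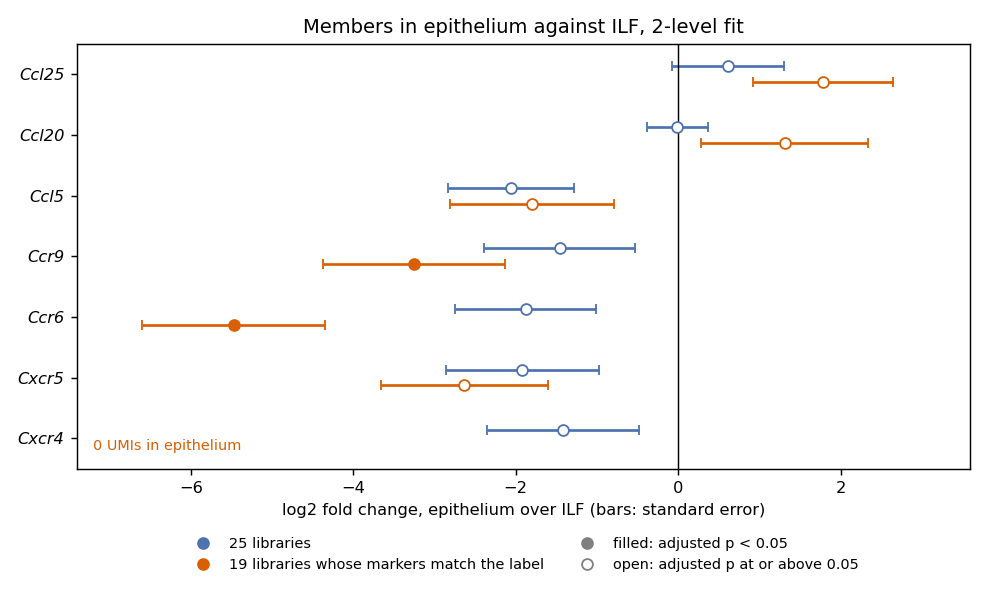
Log2 fold change of epithelium over ILF for the 7 tested members (horizontal axis, bars of 1 SE) in the model with 1 level per compartment, over 25 libraries (blue) and over the 19 libraries whose markers matched the label (orange). Filled points have an adjusted p under 0.05, which only Ccr6 at -5.47 and Ccr9 at -3.25 reach, both over 19 libraries. Cxcr4 has no orange point since it had 0 UMIs in those epithelial libraries. The short blue bar of Ccl20 belongs to a fold change near 0, where the SE is not reliable, and does not show a precise value.

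Within a compartment no member was called in any comparison. In the epithelium FAET differed from VB in 1 gene of 9956 (0.01%) and from FAEB in 0 (0%), and FAEB differed from VB in 2 (0.0201%). Between FAET and FAEB, DESeq2 called 4 genes, and in edgeR 1424 genes (14.3%) and 2 of 7 members had an unadjusted p under 0.05. The same threshold was passed by 12.3% of genes and 1 member between FAET and VB, 8.92% and 4 members between FAEB and VB, and 14.7% and 3 members between ILFB and ILFT. The 2 members between FAET and FAEB were Ccr6 and Ccr9. Their FAET UMIs lay in repeat 1, with immune markers, apart from 1 UMI of Ccr6. Against FAEB, all VB UMIs of Ccr6 and Cxcr4 came from repeat 5, with immune markers, as did 11 of 22 for Ccr9. Without the 6 libraries, 0 members and 1567 of 8738 genes passed that threshold between FAET and FAEB. The numbers were 2 and 1291 between FAET and VB, 2 and 778 between FAEB and VB, and 3 and 1090 between ILFB and ILFT. In the follicle 8 genes passed after adjustment for ILFB against ILFT (0.0804%). With the repeat as a block 0 genes passed in these comparisons. Beside the values of Ccr6, Ccr9 and Cxcr4, ILFB and ILFT differed by -1.71 ± 1.35 for Ccl20 (log2 fold change ± SE, edgeR adjusted p = 0.608), -1.02 ± 1.04 for Ccl25 (0.725) and -0.87 ± 1.21 for Ccl5 (0.816). These 3 ligands had their highest ILFT values in libraries with epithelial markers, and the sign of each turned in the fractions without those libraries.

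Of 37 other chemokine ligands, 25 were in the table and 8 were tested, of which 1 was called. Cxcl13, which attracts CXCR5+ B cells, had 357 UMIs, 281 of them in ILFB and 1 in FAEB, and was lower in epithelium by -2.64 ± 0.76 (edgeR adjusted p = 0.037 with 1 level per compartment, 0.0304 in the fit of 5 segments). ILFB repeat 4 held 188 of these UMIs, and without repeat 2, 3 or 4 the adjusted p of the former was 0.0948, 0.181 and 0.737. The next ligands by UMIs were Cxcl16 with 86 (-0.73 ± 0.91), Ccl6 with 66 (1.58 ± 0.94) and Cx3cl1 with 59 (1.14 ± 0.95). The median of the 8 was -0.87.

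Among 22 other chemokine and related receptors, 17 were in the table, 5 were tested and 0 were called, all 5 with negative values and a median of -2.02. They included Cx3cr1 with 71 UMIs (-2.08), Gpr183 with 65 (-1.19 ± 0.94), Ccr1 with 35 (-2.27 ± 0.95) and S1pr1 with 34 (-1.22 ± 0.96). For ILFB against ILFT all 5 were positive, beside a median of 0.77 over all genes, and 3 had an unadjusted p under 0.05, as did 14.7% of all genes. Of 13 homing integrins, selectins and addressins, 11 were tested and 0 were called, 10 of them with negative values and a median of -1.42. Itga4 had 194 UMIs (-1.27 ± 0.78), Selplg 120 (-0.22 ± 0.82), Itgb1 109 (0.00) and Icam1 85 (-1.42 ± 0.91).

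The genes whose normalized log2 counts followed each member most closely over the 25 libraries are given as a description, since libraries share depth and composition. Ccr6 was followed by Gm20489 (Pearson's r = 0.97), Ltb (0.96), a lymphotoxin subunit that is also in the pan-immune list, and AI662270 (0.96). For Cxcr4 the closest were Ighd (0.90), the IgD heavy chain of mature B cells, Irf5 (0.89) and Aff3 (0.89). Ccl25 was closest to Apol10a (0.92), Ckmt1 (0.90), a mitochondrial creatine kinase, and 2200002D01Rik (0.89). Lower values were found for Ccl5 with Mrpl33 (0.82), Dusp6 (0.76) and Clptm1l (0.76), for Ccr9 with Prkd3 (0.82), Smarcb1 (0.82) and Ly6e (0.80), and for Cxcr5 with Vpreb3 (0.81), Lamtor1 (0.81) and Was (0.81). Ccl20 had the lowest of the 7, with Cpsf7 (0.76), Zdhhc7 (0.74) and Nostrin (0.72).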

How the data were processed

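Per the labels and the study's methods, the authors counted UMIs per gene from mcSCRBseq libraries (GRCm38, Ensembl 84 annotation, zUMIs with STAR, and bcl2fastq 2.15.0.4 in the submitters' notes). The extraction label also names a SMARTseq kit for LCM samples. The deposited values are raw counts of 24089 genes, and 0 columns lacked a sample. Groups came from the labels.

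Genes that reached 3 UMIs in 3 or more libraries (9956) were tested with edgeR 4.0.16 in R 4.3.3 (glmQLFTest, TMM factors, terms for segment and mouse, Benjamini-Hochberg over all genes). A log2 fold change is printed only where no group compared was at 0 in every library. Its SE was derived as the absolute log2 fold change over the square root of the F statistic, which is not reliable near 0. DESeq2 1.42.0, limma-voom 3.58.1, other normalizations, no filter, a repeat block, single mice, each repeat left out and the 6 libraries left out were the alternatives, and the model with 1 level per compartment, ratios to marker UMIs and sums without the library of most UMIs were added after seeing the data. The filter and the tests were checked on simulated counts. Over all genes, ILFB exceeded ILFT by a median of 0.77 (log2) with TMM, 0.56 with RLE factors and 0.33 with the scaling of the study. Fractions used protein-coding genes of GENCODE M21 without mitochondrial genes and without the 2 genes that reached 5% of a library, and were tested by exact permutation within mice (Python 3.11.15, numpy 2.4.6). Limits for a count of 0 were set at 3 UMIs and cover counting error only. Common dispersion was 1.79. The closest library pair within a segment had a chi-square per degree of freedom of 5.87, so no library was counted as deposited more than once within its segment. Pairs across segments were not compared.

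Same-numbered repeats come from the same mouse in all segments, so the numbers pair the libraries. Deviations from segment means correlated at a mean of 0.024 between same-numbered libraries (50 pairs), -0.011 within a mouse (80) and -0.003 between mice (120).

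The members and all lists were chosen with earlier results of these data known. Named genes were the 8 members, other listed genes that passed in any comparison, the 4 with most UMIs of each list, and the 3 genes of at least 50 UMIs with the highest Pearson correlation (log2 CPM, prior count 2) with each member of at least 20 UMIs. Figures were drawn with matplotlib 3.10.9. One listed receptor is not reported here.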

Additional observations from a re-analysis of the deposited data

Results flagged for a closer look

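In 14 of the 40 sets of 5 libraries (8 genes in 5 segments), 1 library stood apart from the other 4, by Dixon's criterion at 95%, which chance alone gives in about 1 set of 20 and more often where most counts are 0. The 40 include sets with 0 UMIs in all 5 libraries, which the criterion cannot flag, so the share among the other sets is higher. Values are UMIs per 10,000. For Ccl20 the libraries that stood apart were FAEB repeat 4 (6.34), FAET repeat 4 (16.6) and ILFT repeat 1 (6.52). For Ccr6 they were VB repeat 5 (2.00), FAET repeat 1 (2.24) and ILFT repeat 5 (1.49). Ccr9 stood out in VB repeat 2 (9.09) and FAET repeat 1 (2.91), and Ccl5 in VB repeat 4 (2.22) and ILFT repeat 3 (15.5). Cxcr4 stood out in VB repeat 5 (1.47). Ccr7 in ILFT repeat 5 (0.249) and Cxcr4 in FAET repeat 1 (0.224) and ILFT repeat 5 (0.249) met the criterion with 1 UMI each, under the limit for a count of 0 in these libraries (0.746 and 0.672), and do not stand above 0.

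VB repeat 5 and FAET repeat 1 had pan-immune shares of 64.0 and 33.0 per 10,000 of all UMIs, against 0 to 5.54 in the other epithelial libraries, and they hold 5 of the 6 receptor values named above for epithelium. The part of these immune transcripts in the values was not tested. ILFT repeats 1 and 3 had pan-epithelial shares of 100.4 and 90.1 per 10,000. The Ccr9 value in VB repeat 2 and the Ccl20 value in FAET repeat 4 stood in libraries whose markers matched the label.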

How the results depend on the processing

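For epithelium against ILF, 291 genes became 0 with DESeq2, 39 with limma-voom, 142 without the filter, 75 with the replicate block, 1512 without the 6 libraries whose markers went against the label, and 0 (without repeat 4) to 403 (without repeat 5) when a repeat was left out. With 1 level per compartment 184 genes were called, 1501 without the 6 libraries, and 1 (without repeat 3 or 4) to 400 without a repeat, with 24 without repeat 2. Members called rose from 0 to 4 without the 6 libraries (3 with 1 level per compartment), and ranged from 0 to 1 without a repeat, the 1 being Ccl5 without repeat 5 (-2.55). For FAET over VB, 1 gene became 3 with the study's scaling, 2 with DESeq2, 0 with limma-voom or the replicate block, 2 without the 6 libraries and 0 to 3 without a repeat. For FAET over FAEB, 0 became 2 with RLE factors, the study's scaling or the 6 libraries left out, 4 with DESeq2 and 0 to 2 without a repeat. For FAEB over VB, 2 became 4 with RLE factors, 5 with the study's scaling, 0 with limma-voom or the replicate block, and 0 to 2 without a repeat. For ILFB over ILFT, 8 became 0 with DESeq2 or the replicate block, 32 with limma-voom, 3 without the filter or the 6 libraries, and 1 to 6 without a repeat. Members with an exact permutation p under 0.05 went from 1 to 5 without the 6 libraries, where the share of all genes went from 11.4% to 24.2%, and to 0 to 2 without a repeat, and over the 3 epithelial segments from 0 to 0 to 1. The block changed no member's call.

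Several log2 fold changes that were not called reversed. Ccl25 in FAET over VB was 0.32 within mouse 2. Ccl25 in FAEB over VB ranged from -0.18 (without repeat 5) to 0.77 without a repeat, with -0.00062 without repeat 2, and was -0.17 without the 6 libraries and -0.50 within mouse 1. Ccl20 in FAET over FAEB was -1.03 with limma-voom and -0.49 with the replicate block. In ILFB over ILFT, Ccl20 was 0.51 with the block, 1.05 within mouse 2 and from -3.13 to 1.64 (without repeat 1) without a repeat. Ccl25 there was 3.47 without the 6 libraries and from -2.40 to 0.26 (without repeat 1) without a repeat. Ccl5 was 0.96 with limma-voom, 0.22 within mouse 1 and from -1.91 to 1.18 (without repeat 3) without a repeat, and Ccr9 was -0.10 with the study's scaling and -0.11 within mouse 2. Ccl20 in epithelium over ILF, with 1 level per compartment, was 1.31 without the 6 libraries, 1.49 without repeat 1 and 0.57 without repeat 2. On the fractions, the difference per 10,000 of epithelium minus ILF ranged without a repeat from -0.984 (without repeat 4) to 1.48 for Ccl20 and from -0.785 to 0.390 (without repeat 3) for Ccr9. That of ILFB minus ILFT was 0.587 for Ccl20, 2.57 for Ccl25 and 1.81 for Ccl5 without the 6 libraries. Without a repeat it ranged from -1.76 to 0.329 (without repeat 1) for Ccl20, from -3.66 to 0.657 (without repeat 3) for Ccl5 and from -0.206 (without repeat 1) to 0.583 for Ccr9, which was also negative without repeat 4 (-0.109). The causes were not tested. Of the results for single genes, 319 kept their side of the threshold and, except in the undirected tests over 3 segments, their direction. A further 29 reversed, 11 passed the threshold only in an alternative and 3 no longer passed it.

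A count of 0 allows up to 4.74 per 10,000 in the shallowest library, above the mean of 7 of the 8 genes in every segment. Absence of these genes from that library is not shown. In the deepest library, ILFB repeat 4, the limit was 0.226. A count of 0 shows only a level under the limit of its own library.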
